A study of Mus musculus with 6 samples.

Results

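The p53 network was followed in mouse bone marrow progenitors labelled as a conditional knockout of Ints11, the catalytic endonuclease of the Integrator complex. It was taken as 36 genes: p53 itself (Trp53), 4 of its regulators and 31 genes listed with its targets, leaving out inhibitors of cyclin-dependent kinases and the BCL2 family. The genes were matched by symbol, and all 36 were found among the 24062 rows of the raw count table. All 36 also passed the filter on low counts, as did 15742 genes in all. Cells sorted for Kit from bone marrow, described in the series text also as lineage-negative, were profiled by messenger RNA sequencing with 1 mouse per library, so the p-values measure the spread between mice. The KO group was 3 C57BL/6 mice labelled Mx1Cre+ Ints11 flox/fox (floxed Ints11 alleles, spelled as in the labels), here KO_339, KO_340 and KO_345. The WT group was 3 C57BL/6 littermates, WT_341, WT_343 and WT_344. The sort of all 6 mice is given as 4 days after injection of poly(I:C), a synthetic double-stranded RNA that induces interferon and, through it, Cre. The Mx1 promoter answers to interferon in many cell types, so deletion is not limited to blood progenitors. The sources used here give neither ages nor whether the WT mice carried Cre.

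p53 is a transcription factor that is made and destroyed continuously. Mdm2 marks it for degradation and Mdm4 holds back its activity, and stress signals that block these brakes let the protein accumulate without any need for more Trp53 messenger RNA. Active p53 then binds paired half-sites in DNA and raises genes of growth arrest, cell death, DNA repair and metabolism, Mdm2 among them, which closes a feedback loop. In blood stem and progenitor cells p53 is known for limiting division and for removing damaged cells.

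Totals were 127011537 to 142983542 counts in KO libraries and 124074531 to 166860739 in WT libraries (n = 3 each; p = 0.40 in an exact permutation test, two-sided, which cannot go below 0.10). Levels are given as CPM, read counts expressed against the library total after scaling by TMM factors. Ints11, listed under its older symbol Cpsf3l, held 64.3, 58.3 and 60.2 CPM in KO libraries and 73.8, 92.3 and 78.9 CPM in WT libraries. It was lower in KO (log2 change -0.42 ± 0.10, SE; edgeR adjusted p = 0.0174), in the direction of the labels. The call was lost without KO_340 (adjusted p = 0.0557), without KO_345 (0.0541) and with the mean log2 level of mature neutrophil markers as a covariate, called the neutrophil covariate from here (-0.22, adjusted p = 0.231). That covariate was 9.94 to 10.3 in KO and 8.09 to 9.69 in WT libraries, without overlap. A fit with it therefore cannot tell genotype and neutrophil marker level apart. Which Ints11 exons are floxed is not stated in the sources used here. Kit, the marker of the sort, stood at 220.3 to 238 CPM in KO and 199 to 221 CPM in WT libraries. Several cell type lists differed in level. The summed level of 13 mature neutrophil markers was 44099 to 57886 CPM in KO and 11597 to 36579 CPM in WT libraries, and that of 10 progenitor markers 9091 to 10999 CPM in KO and 16693 to 22270 CPM in WT libraries. The progenitor sum was carried by the granule genes Mpo, Ctsg, Prtn3 and Elane, which were called lower, while Gata2 (log2 change 1.41) and Cd34 (0.38) were called higher and Kit, Flt3, Spi1 and Myb made no call. Megakaryocyte markers summed to 150.3 to 216 CPM in KO and 82.6 to 91.6 CPM in WT libraries, and stromal and endothelial markers to 118 to 198 CPM in KO and 96.8 to 109 CPM in WT libraries. Monocyte and macrophage markers summed to 1275 to 1494 CPM in KO and 1685 to 1827 CPM in WT libraries. Ly6c2 was the largest part of that sum and was called lower, as were Ccr2 and Csf1r. Vcam1 (log2 change 0.62) was called higher, and the other 6 monocyte and macrophage markers made no call. T and NK cell markers summed to 216 to 232 CPM in KO and 271 to 307 CPM in WT libraries. Nkg7 made up most of the T and NK sum and was called lower, whereas the 8 other tested markers of that list had positive log2 changes and 3 of them, Cd3g, Ncr1 and Gzma, were called higher. These 3 are 33.3% of the tested T and NK markers, against 16.0% of all tested genes called higher. Erythroid markers (413 to 509 CPM in KO, 452 to 754 CPM in WT) and B and lymphoid markers (122 to 145 CPM in KO, 34.0 to 199 CPM in WT) overlapped between groups. In bulk samples such as these, fewer cells of a type and less RNA per cell cannot be told apart.

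Most of the p53 targets among the 36 members were higher in the KO progenitors, while p53 itself, Mdm4 and Ppm1d were not. The members were chosen with earlier results of these data known, and of 19 tested targets outside them 7 rose and 2 fell. Of the 36 members 20 rose and 1 fell (edgeR, quasi-likelihood F-test, Benjamini-Hochberg over all tested genes, threshold 0.05), which is 55.6% and 2.78% of the members. Over all 15742 tested genes 16.0% were called higher and 19.9% lower. A rise of at least 2-fold was called for 13 members, against 8.63% of all tested genes. Every KO library lay above every WT library for 26 members (72.2%), against 25.6% of all tested genes, and below for 1 member, against 28.4%. The groups overlapped for 9 of the 36 members, against 7250 of the 15742 tested genes, of which 53.9% showed no overlap. The median log2 change was 0.81 over the members and 0.01 over all tested genes. Scaling moved the balance over all genes, with 2520 higher and 3139 lower calls under TMM factors, and 3458 higher and 1931 lower under upper-quartile factors. The members then stood at 24 higher and 0 lower. The background also moved when single libraries were left out, with 6.54% of genes called higher without KO_339, 8.27% without KO_345, 8.92% without WT_344, 10.3% without KO_340 and 10.7% without WT_343, and 22.1% without WT_341, while between 19 and 24 members rose.

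**Figure D1:**
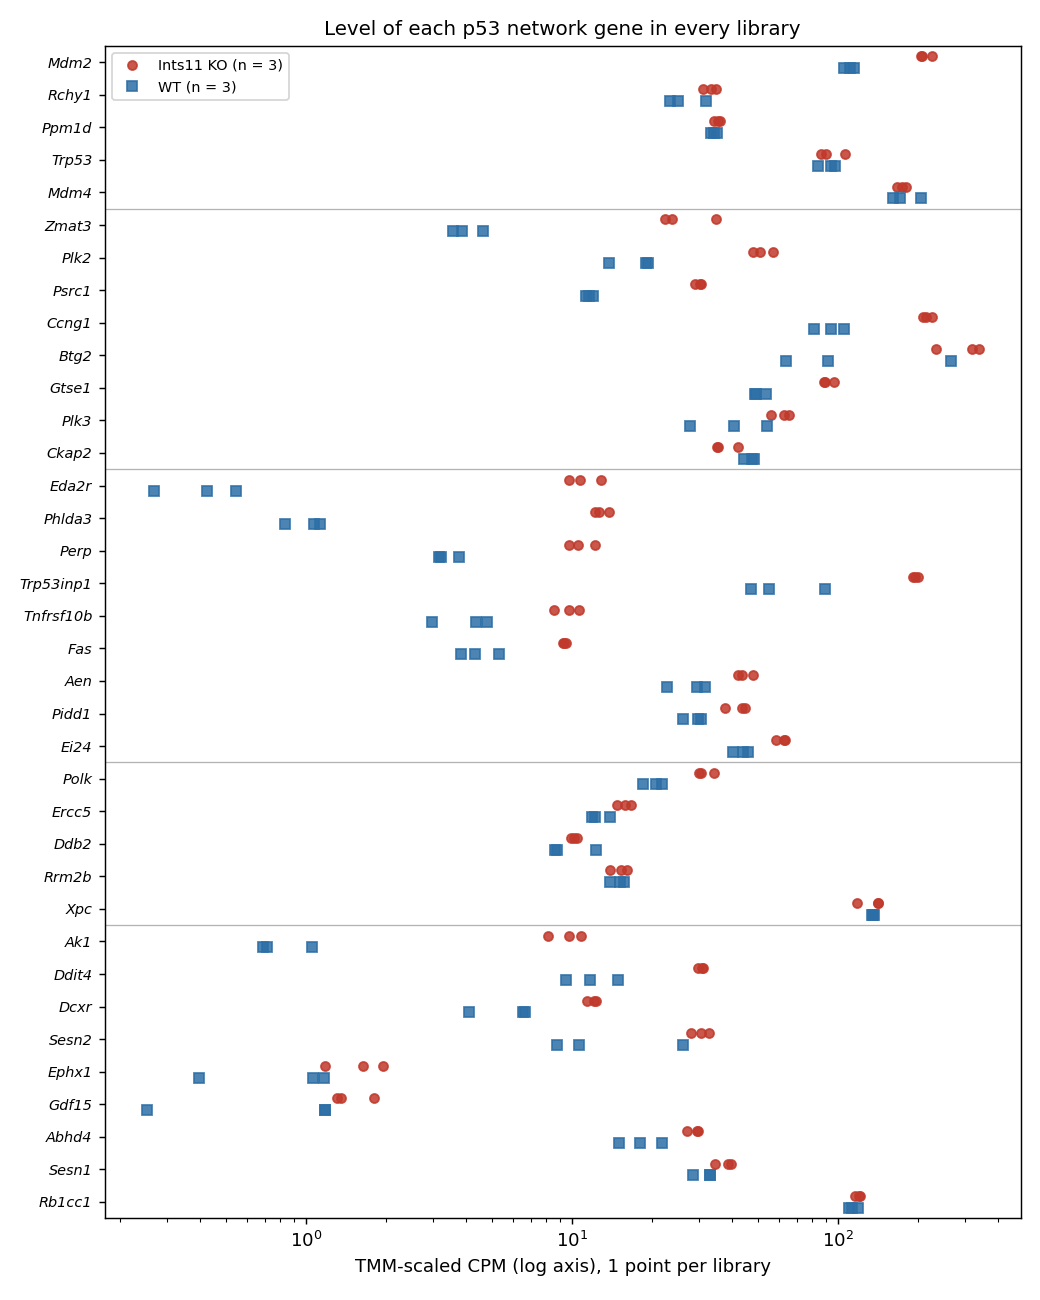
Level of each of the 36 genes in TMM-scaled CPM (log axis), 1 point per library, with the 3 Ints11 KO libraries as circles above the 3 WT libraries as squares, and lines between the role groups. The KO points lie to the right of all WT points for 26 genes, widest apart for Eda2r, Phlda3 and Ak1, and overlap them for Trp53, Ppm1d and Mdm4.

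The sequence that p53 reads is a pair of 10-base half-sites with a short spacer. The p53 half-site consensus was searched in RefSeq promoter windows (GRCm38.p6) that run from 250 bases before to 50 bases after an annotated start. The consensus equals its own reverse complement, so a match counts for both strands. A full site was taken as 2 half-sites up to 13 bases apart with at most 2 mismatches in all, none of them at the core C and G of a half-site. Windows were given for 28 of the 36 members. A full site was found for 4 of the 28 (14.3%), against 530 of 11405 tested genes with a window (4.65%) and 4.09% of all 32851 windows. An exact half-site, alone or within a full site, was found for 12 of the 28 (42.9%), against 8.39% of the tested genes and 8.36% of all windows. Among the members that rose, 7 of 16 held a half-site (43.8%), and among those without a call 4 of 11 (36.4%). The cyclin G1 gene Ccng1 and the microtubule-binding protein gene Gtse1 held the best matches, each with 1 mismatch and no spacer. Their windows are shown because both genes rose. Capitals mark the full site, at position -195 from the start of Ccng1 (chr11:40755237-40755536, reverse strand) and at -1 from the downstream of 2 annotated starts of Gtse1 (chr15:85859696-85859995, forward strand).
Ccng1: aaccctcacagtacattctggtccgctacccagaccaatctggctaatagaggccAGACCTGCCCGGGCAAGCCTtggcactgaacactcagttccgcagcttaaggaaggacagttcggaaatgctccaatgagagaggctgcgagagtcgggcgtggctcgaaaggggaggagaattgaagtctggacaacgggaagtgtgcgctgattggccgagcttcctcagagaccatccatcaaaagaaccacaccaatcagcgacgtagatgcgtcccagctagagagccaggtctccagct
Gtse1: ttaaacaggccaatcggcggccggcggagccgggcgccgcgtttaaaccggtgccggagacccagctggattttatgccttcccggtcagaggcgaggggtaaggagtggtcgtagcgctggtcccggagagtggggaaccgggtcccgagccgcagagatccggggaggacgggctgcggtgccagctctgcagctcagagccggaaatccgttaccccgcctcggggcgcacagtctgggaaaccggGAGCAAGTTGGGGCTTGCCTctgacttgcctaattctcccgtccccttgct
Exact half-sites with their flanks follow for 3 further members that rose (Mdm2, Aen, Ei24) and for 2 that made no call (Trp53, Ppm1d), with the half-site in capitals.
Mdm2: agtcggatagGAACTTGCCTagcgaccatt
Aen: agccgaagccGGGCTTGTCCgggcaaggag
Ei24: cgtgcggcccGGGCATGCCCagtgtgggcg
Trp53: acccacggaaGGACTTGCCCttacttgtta
Ppm1d: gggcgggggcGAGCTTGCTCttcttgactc
These 5 lie at chr10:117710925-117710954 (reverse strand), chr7:78895927-78895956 (forward), chr9:36797325-36797354 (reverse), chr11:69580274-69580303 (forward) and chr11:85311112-85311141 (forward), in the order printed. No match to the half-site consensus was found in the windows of Eda2r, Phlda3 and Ak1, the members with the largest rises, which says only that these letters are not in those 300 bases.

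Of p53 and its 4 regulators, Mdm2 alone passed the test, and it rose (20%, a share near the 16.0% of all tested genes called higher). Mdm2, the ubiquitin ligase that marks p53 for degradation and is itself a p53 target (chr10:117688875-117710758, reverse strand), held 205, 226 and 206 CPM in KO libraries and 106, 111 and 115 CPM in WT libraries. The 2 groups lay well apart, with a log2 change of 0.94 ± 0.07 (SE; 1.92-fold) and an edgeR adjusted p of 0.00113. Trp53 (chr11:69580359-69591873, forward strand) held 86.3, 90.4 and 107 CPM in KO libraries and 84.3, 94.2 and 97.7 CPM in WT libraries. Its groups overlapped, and its log2 change of 0.04 had a 95% confidence interval from -0.20 to 0.28 (edgeR adjusted p = 0.795). Mdm4, the relative of Mdm2 that binds p53 and holds back its activity, held 180.5, 174 and 168 CPM in KO libraries and 205, 171 and 161 CPM in WT libraries (log2 change -0.04, interval -0.27 to 0.19). Ppm1d, a phosphatase that switches p53 signalling off again, held 35.5, 36.1 and 34.2 CPM in KO libraries and 33.3, 34.3 and 35.2 CPM in WT libraries (log2 change 0.04, interval -0.14 to 0.22). For Mdm4 and Ppm1d too the groups overlapped. Rchy1, another ubiquitin ligase for p53, held 33.4, 31.1 and 34.7 CPM in KO libraries and 31.9, 23.4 and 25.1 CPM in WT libraries (log2 change 0.30, edgeR adjusted p = 0.104). WT_341 lay within its KO range, and without that library the log2 change was 0.44 and the adjusted p 0.00604 in the same test, while with the neutrophil covariate the log2 change was 0.01. The fit without WT_341 was picked after the values were seen. Rchy1 made no call under 12 of 14 alternatives, with adjusted p-values from 0.00604 to 0.963 over all 14. In the annotation 680 exon bases of Rchy1 are shared with Thap6, annotated as a pseudogene on the other strand.

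Among 8 genes of growth arrest and the cell cycle, 5 rose and 1 fell (62.5% and 12.5%, against 16.0% and 19.9% of all tested genes). Zmat3, an RNA-binding zinc finger protein that restrains growth (chr3:32334792-32366014, reverse strand), held 23.8, 22.3 and 34.8 CPM in KO libraries and 3.88, 3.58 and 4.64 CPM in WT libraries (log2 change 2.74 ± 0.20, SE; edgeR adjusted p = 0.00103). KO_345 was the highest KO library for Zmat3, and even the lowest KO library stood far above WT. Plk2, a polo-like kinase induced by stress, held 57.3, 51.2 and 47.8 CPM in KO libraries and 18.9, 13.8 and 19.3 CPM in WT libraries (1.59 ± 0.15, adjusted p = 0.00168 in the same test). Psrc1, a microtubule-associated protein gene, held 30.4, 30.6 and 28.9 CPM in KO libraries and 12.0, 11.6 and 11.3 CPM in WT libraries (1.37 ± 0.09, adjusted p = 0.00064). Both groups were tight for Psrc1, whose highest and lowest libraries differed by 1.06-fold in KO and 1.07-fold in WT. Ccng1, which carries the site shown above and encodes a cyclin that acts on Mdm2 through a phosphatase, held 215, 226 and 209 CPM in KO libraries and 81.2, 106 and 94.3 CPM in WT libraries (1.21 ± 0.10, adjusted p = 0.00144). Gtse1, the other gene with its window shown, encodes a protein of S and G2 phase that lowers p53. It held 89.7, 97.0 and 88.6 CPM in KO libraries and 48.9, 49.2 and 53.7 CPM in WT libraries (0.86 ± 0.08, adjusted p = 0.0015).

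The other 3 of these 8 genes did not rise. Ckap2, which encodes a spindle protein and whose promoter window held a full site with 2 mismatches, fell by 0.32 on the log2 scale (SE 0.10, edgeR adjusted p = 0.0418), with 42.1, 35.4 and 35.0 CPM in KO libraries and 47.5, 48.2 and 44.2 CPM in WT libraries. That call was lost without KO_340 (adjusted p = 0.157), KO_345 (0.158), WT_343 (0.0840) or WT_344 (0.0710), and under 5 other settings, in a range from 0.0202 to 0.170 over 14 alternatives. Btg2, an antiproliferative gene, and the kinase gene Plk3 are given here because of WT_341, a choice made after their values were seen. Btg2 held 319, 339.1 and 233 CPM in KO libraries, against 265 CPM in WT_341, 63.8 CPM in WT_343 and 91.8 CPM in WT_344 (log2 change 1.08, adjusted p = 0.118). Plk3 held 65.6, 62.8 and 56.0 CPM in KO libraries, against 54.1 CPM in WT_341, 27.8 CPM in WT_343 and 40.8 CPM in WT_344 (0.59, adjusted p = 0.0697). Without WT_341 the log2 changes were 1.92 for Btg2 (adjusted p = 0.00247) and 0.83 for Plk3 (adjusted p = 0.00767). WT_341 also had the highest neutrophil marker sum of the WT libraries, and with the neutrophil covariate the log2 changes were -0.07 for Btg2 (adjusted p = 0.917) and -0.04 for Plk3 (adjusted p = 0.838). As the covariate does not overlap between the groups, genotype and neutrophil marker level cannot be told apart here. By Xist and Y-linked counts WT_341 was also the only male of the WT group. Its sums of erythroid (754 CPM) and of B and lymphoid markers (199 CPM) were the highest of the WT libraries too. With sex as a covariate the log2 changes were 0.95 for Btg2 (edgeR adjusted p = 0.0581) and 0.48 for Plk3 (adjusted p = 0.0679). Which of these traits, if any, has a part in the values of these genes was not tested.

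All 9 death signalling genes among the members rose, against 16.0% of all tested genes. Eda2r, an ectodysplasin receptor related to the tumour necrosis factor receptors (chrX:97333840-97377216, reverse strand), held 10.7, 9.78 and 12.9 CPM in KO libraries and 0.543, 0.424 and 0.268 CPM in WT libraries (log2 change 4.76 ± 0.29, SE; edgeR adjusted p = 0.00064). Phlda3, a lipid-binding inhibitor of Akt (chr1:135766119-135769136, forward strand), held 13.8, 12.7 and 12.2 CPM in KO libraries and 0.835, 1.13 and 1.07 CPM in WT libraries (3.67 ± 0.17, adjusted p = 0.00016 in the same test). Both genes stood near or under 1 CPM in WT libraries and had no overlap between groups. Perp, a membrane protein of cell junctions and cell death, held 10.5, 9.76 and 12.2 CPM in KO libraries and 3.76, 3.16 and 3.21 CPM in WT libraries (1.68 ± 0.15, adjusted p = 0.00144). Trp53inp1, a nuclear stress protein that supports p53, held 200.1, 191 and 194 CPM in KO libraries and 89.2, 47.1 and 55.0 CPM in WT libraries (1.61 ± 0.22, adjusted p = 0.00397). With the neutrophil covariate its log2 change was 1.04 (adjusted p = 0.0152 in the same test). Fas, the death receptor of the Fas ligand, held 9.32, 9.53 and 9.23 CPM in KO libraries and 5.30, 3.82 and 4.33 CPM in WT libraries (1.06 ± 0.15, adjusted p = 0.00459).

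The other 4 death genes, with larger adjusted p-values, also rose. Tnfrsf10b, the receptor for the death ligand TRAIL, had a log2 change of 1.25 ± 0.20 (SE; edgeR adjusted p = 0.00597), with 8.58 to 10.6 CPM in KO and 2.97 to 4.81 CPM in WT libraries. The nuclease gene Aen rose by 0.67 ± 0.13 (adjusted p = 0.0109), with 44.6 ± 3.12 CPM in KO and 28 ± 4.61 CPM in WT libraries (mean ± SD, n = 3 each). Pidd1, the scaffold of a caspase-activating complex, rose by 0.54 ± 0.11 (adjusted p = 0.0102), with 37.7 to 44.6 CPM in KO and 26.1 to 30.6 CPM in WT libraries. Ei24, a protein of the endoplasmic reticulum, rose by 0.51 ± 0.08 (adjusted p = 0.00571), with 58.8 to 63.1 CPM in KO and 40.3 to 46.0 CPM in WT libraries. The Pidd1 call was lost with the neutrophil covariate (log2 change 0.43, adjusted p = 0.108), and the other 8 death genes passed under all 14 alternatives tried.

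**Figure D2:**
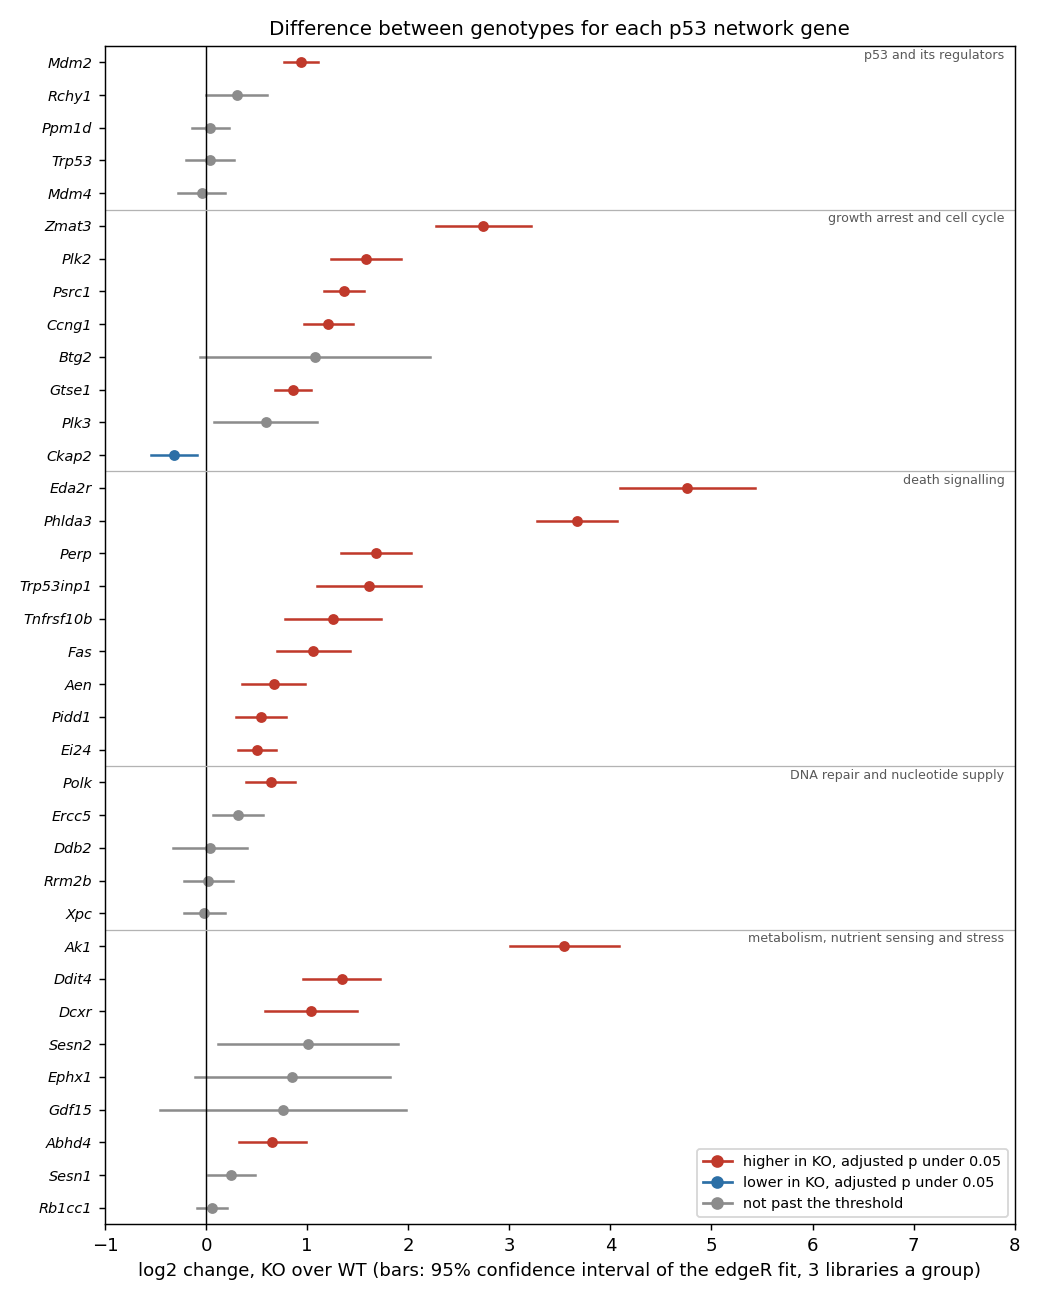
Log2 change of KO over WT for each of the 36 genes, with bars for the 95% confidence interval of the edgeR fit on 3 libraries a group, by role group. All 9 death signalling genes lie to the right of 0, led by Eda2r at 4.76, while Trp53, Ppm1d, Mdm4, Xpc, Ddb2 and Rrm2b sit close to 0.

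Of 5 genes of DNA repair and nucleotide supply 1 rose (20%), a share near the 16.0% of all tested genes called higher. Polk, a polymerase that copies past damaged bases, held 30.0, 34.3 and 30.7 CPM in KO libraries and 20.7, 21.9 and 18.5 CPM in WT libraries (log2 change 0.64 ± 0.10, SE; edgeR adjusted p = 0.00592). Xpc and Ddb2 recognise lesions for nucleotide excision repair. Xpc held 142, 141 and 118 CPM in KO libraries and 137, 136 and 134 CPM in WT libraries, with an interval of the log2 change from -0.22 to 0.19. Ddb2 held 10.4, 10.2 and 9.94 CPM in KO libraries and 12.3, 8.66 and 8.78 CPM in WT libraries (interval -0.33 to 0.41). Its groups overlapped through WT_341, and 23.8% of its exon bases are shared with Acp2 on the other strand, so part of its reads could belong to that gene if strand was not used in counting. Rrm2b, the p53-inducible subunit of ribonucleotide reductase, held 16.2, 15.3 and 14.0 CPM in KO libraries and 15.7, 15.2 and 13.9 CPM in WT libraries (interval -0.22 to 0.26). Ercc5, an endonuclease of excision repair, held 14.8, 15.8 and 16.7 CPM in KO libraries and 13.9, 12.2 and 11.9 CPM in WT libraries. Its groups did not overlap, but its log2 change of 0.31 missed the threshold (adjusted p = 0.0541 in the same test) and passed under 6 of 14 alternatives, with adjusted p-values from 0.0106 to 0.365.

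Of 9 genes of metabolism, nutrient sensing and stress, 4 rose (44.4%, against 16.0% of all tested genes). Ak1, the adenylate kinase of the cytosol (chr2:32621758-32635058, forward strand), held 9.75, 8.13 and 10.8 CPM in KO libraries and 0.689, 0.715 and 1.05 CPM in WT libraries (log2 change 3.55 ± 0.23, SE; edgeR adjusted p = 0.000653). Ddit4, an inhibitor of mTOR signalling, held 29.9, 30.7 and 31.1 CPM in KO libraries and 9.48, 14.9 and 11.7 CPM in WT libraries (1.34 ± 0.16, adjusted p = 0.00327). Dcxr, a sugar and dicarbonyl reductase, held 11.4, 12.1 and 12.3 CPM in KO libraries and 4.11, 6.53 and 6.69 CPM in WT libraries (1.04 ± 0.19, adjusted p = 0.00893). For these 3 genes the lowest KO library stood well above the highest WT library. Abhd4, a lipase of membrane phospholipids, held 29.9, 27.2 and 29.5 CPM in KO libraries and 21.8, 18.03 and 15.1 CPM in WT libraries (0.66 ± 0.14, adjusted p = 0.0135). Its call was lost without KO_339 (0.66, adjusted p = 0.0566) and with the neutrophil covariate (0.47, adjusted p = 0.159), in a range from 0.000385 to 0.159 over 14 alternatives.

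The sestrins, stress proteins that dampen mTOR, and 3 other genes of the group did not pass. Sesn2 held 28.1, 30.7 and 32.8 CPM in KO libraries, against 8.76 CPM in WT_341, 26.1 CPM in WT_343 and 10.6 CPM in WT_344 (log2 change 1.01, edgeR adjusted p = 0.0736). WT_343 alone came near the KO libraries, and without it the log2 change was 1.65 (adjusted p = 0.00299 in the same test). That fit is given here because of the WT_343 value, a choice made after the values were seen. With the neutrophil covariate Sesn2 also passed (2.28, adjusted p = 0.00796). Sesn2 made no call under 10 of 14 alternatives, with adjusted p-values from 0.00214 to 0.1995 over all 14. Sesn1, whose promoter window held a full site with 2 mismatches, had a log2 change of 0.25 (adjusted p = 0.0851), with 34.6 to 39.7 CPM in KO and 28.7 to 33.2 CPM in WT libraries. The stress cytokine Gdf15 held 1.31, 1.35 and 1.81 CPM in KO libraries and 0.251, 1.18 and 1.18 CPM in WT libraries (0.76, adjusted p = 0.276). The epoxide hydrolase gene Ephx1 held 1.18 to 1.95 CPM in KO and 0.397 to 1.17 CPM in WT libraries (0.85, adjusted p = 0.139). WT_341 was the lowest library for both. By Xist and Y-linked counts the KO group held 2 males and 1 female and the WT group 1 male, WT_341, and 2 females. With sex as a covariate Gdf15 (1.43, adjusted p = 0.0407) and Ephx1 (1.28, adjusted p = 0.0236) passed. Each made no call under the other 13 alternatives, with adjusted p-values up to 0.462 for Gdf15 and 0.296 for Ephx1. Rb1cc1, an autophagy initiation factor, held 116 to 121 CPM in KO and 111 to 119 CPM in WT libraries (0.06, adjusted p = 0.488).

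Levels of different genes were compared only per length, as CPM per kilobase of merged exons. On that scale Btg2 and Ccng1 had the 2 highest means among the members in both genotypes, at 108 ± 20.4 and 61.7 ± 2.52 in KO libraries and 51.2 ± 39.8 and 26.7 ± 3.496 in WT libraries (mean ± SD, n = 3 each). Trp53 stood at 23.4 ± 2.67 in KO and 22.8 ± 1.72 in WT libraries, rank 8 of 36 in KO and rank 4 in WT. The genes with the largest log2 changes came from the bottom of the WT order, where Eda2r ranked 36, Ak1 35, Zmat3 34 and Phlda3 31. In KO libraries they ranked 32, 29, 31 and 22 in the same sequence, so even after these rises they remained among the less abundant members. The WT value of Btg2 rested on WT_341, with 96.8 in that library, 23.3 in WT_343 and 33.5 in WT_344, and in WT_343 Btg2 stood below Ccng1, Xpc and Trp53. Trp53inp1 ranked 5 in KO and 11 in WT, and Mdm2 ranked 3 in KO and 5 in WT.

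The KO libraries were close to each other. The coefficient of variation over 3 libraries had a median of 7.08% in KO and 14.5% in WT over the members, and of 8.02% in KO and 14.7% in WT over all tested genes. KO varied less than WT for 28 of 36 members (77.8%), against 72.8% of all tested genes, a share near the background. Among the 20 members that rose, KO_340 and KO_345 were each the highest KO library for 8 genes and KO_339 for 4. The widest spreads were in WT, where the highest library exceeded the lowest 4.71-fold for Gdf15, 4.16-fold for Btg2 and 2.98-fold for Sesn2.

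The level of the members was set beside the neutrophil markers library by library. The summed level of the 36 genes was 2258 CPM in KO_339, 2304 CPM in KO_340 and 2152 CPM in KO_345, against 1580 CPM in WT_341, 1332 CPM in WT_343 and 1345 CPM in WT_344. WT_341 had the highest sum of the WT libraries on both measures, with a neutrophil marker sum of 36579 CPM, against 44099 CPM in KO_345 and 11597 CPM in WT_343. Much of the higher member sum of WT_341 came from Btg2, at 265 CPM there, 63.8 CPM in WT_343 and 91.8 CPM in WT_344. The median log2 level of the members over the WT mean was 0.019 in WT_341, 0.003 in WT_343 and 0.002 in WT_344. That median was 0.848 to 0.854 in KO libraries. Gene by gene WT_341 went both ways, as the highest WT library for 15 of the 36 members, Trp53inp1, Btg2 and Plk3 among them, and the lowest for 15. All 13 neutrophil markers had positive log2 changes and 5 of them were called higher (38.5%, against 16.0% of all tested genes). With the neutrophil covariate, 19 members were higher and 0 lower, against 3.05% of all tested genes called higher. Of the 20 members that rose, 18 remained in that fit. Because the covariate does not overlap between the groups, that fit cannot tell genotype and neutrophil marker level apart. The same 18 passed under all 14 alternatives, and Pidd1 and Abhd4 were the exceptions. Of the megakaryocyte markers 6 of 10 rose (60%) and of the stromal and endothelial list 4 of 10 (40%), against 16.0% of all tested genes. The 4 were Col1a1, Col1a2, Pdgfrb and Bglap, the last with 5 to 48 counts a library, while the endothelial markers Pecam1, Cdh5 and Kdr made no call. Whether these markers' cells have a part in the members' values was not tested.

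**Figure D3:**
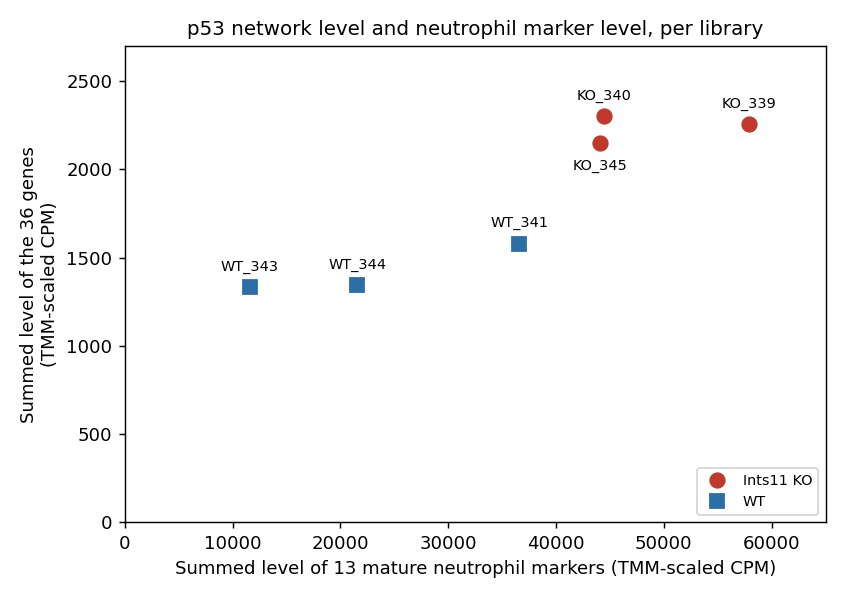
Each point is a library, with the summed level of 13 mature neutrophil markers (TMM-scaled CPM) on the x axis and the summed level of the 36 genes (TMM-scaled CPM) on the y axis, KO as circles and WT as squares. The KO libraries sit between 2152 and 2304 CPM and the WT libraries between 1332 and 1580 CPM, with WT_341 the highest of the WT libraries on both axes. Btg2 made up much of the difference in the summed level between WT_341 and the other WT libraries.

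**Figure D4:**
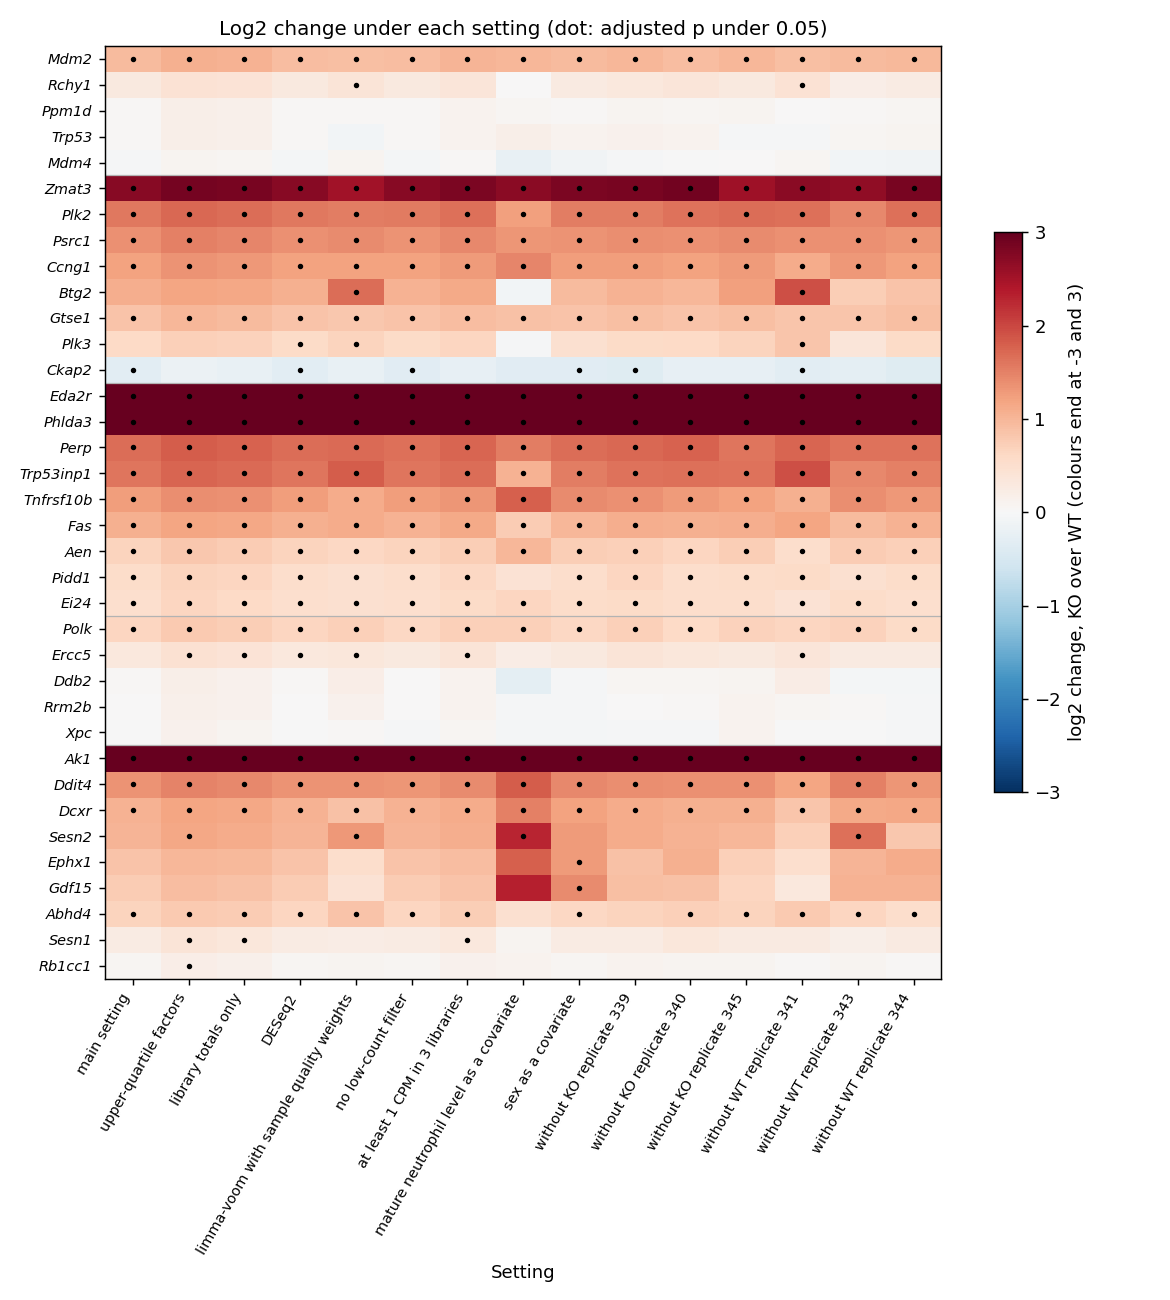
Log2 change of KO over WT for each gene under the main setting and 14 alternatives (colours end at -3 and 3), with a dot where the adjusted p was under 0.05. Rows of 18 genes carry a dot in every column. Dots come and go for Ckap2, Ercc5, Plk3, Btg2, Rchy1, Sesn1, Sesn2, Pidd1, Abhd4, Ephx1, Gdf15 and Rb1cc1.

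Other targets of p53 moved both ways. Of 20 listed targets outside the 36 genes, 19 were tested, and 7 rose (36.8%) and 2 fell (10.5%), against 16.0% and 19.9% of all tested genes, with a median log2 change of 0.13. Cdkn1a, the kinase inhibitor p21, held 56.9, 67.2 and 78.3 CPM in KO libraries and 9.12, 11.8 and 14.6 CPM in WT libraries (log2 change 2.51 ± 0.20, SE; edgeR adjusted p = 0.00113). Bbc3, a death activator of the BCL2 family, held 12.7, 15.5 and 14.0 CPM in KO libraries and 2.64, 3.16 and 3.98 CPM in WT libraries (2.11 ± 0.18, adjusted p = 0.00144). Bax, which opens the mitochondrial membrane, rose by 0.61 ± 0.12 (adjusted p = 0.0116), with 57.2 to 60.1 CPM in KO and 31.9 to 44.8 CPM in WT libraries. The thiamine transporter gene Slc19a2 rose by 1.25 ± 0.11 (adjusted p = 0.00144) and the antiproliferative gene Tob1 by 1.60 ± 0.27 (adjusted p = 0.00635). With the neutrophil covariate the log2 change was 0.96 for Bax and 0.91 for Tob1, and both calls held. The other 2 that rose were Gadd45a (0.60) and Thbs1 (1.57, overlapping groups), and both lost the call with that covariate and without some single libraries. The 2 that fell, named after their values were seen, were Tigar, a phosphatase that slows glycolysis and is listed as 9630033F20Rik (-0.90 ± 0.17, adjusted p = 0.00987), and the ferredoxin reductase gene Fdxr (-0.53 ± 0.15, adjusted p = 0.0282). Both calls were lost with the neutrophil covariate (-0.38 and -0.18), and that of Fdxr also without any single library but WT_341 (adjusted p from 0.0712 to 0.0900) and with upper-quartile factors. The other 10 tested targets made no call. Among them were the death genes Pmaip1 (log2 change -0.08), Apaf1 (-0.12) and Siva1 (-0.23), with edgeR adjusted p-values from 0.201 to 0.736.

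Atm, Atr and Prkdc, kinases that signal DNA damage to p53, were lower in KO. Of 20 listed upstream and family genes 17 were tested, 1 was called higher (5.88%) and 8 lower (47.1%), against 16.0% and 19.9% of all tested genes. The kinase genes Chek2 (log2 change -0.13, edgeR adjusted p = 0.313) and Hipk2 (0.32, adjusted p = 0.0696) made no call. Atr held 70.2, 71.3 and 72.3 CPM in KO libraries and 114, 141 and 120.5 CPM in WT libraries (log2 change -0.81 ± 0.09, SE; edgeR adjusted p = 0.00296). Atm held 97.8, 100.4 and 102 CPM in KO libraries and 144, 177 and 154 CPM in WT libraries (-0.66 ± 0.09, adjusted p = 0.0038). Prkdc, the catalytic subunit of the DNA-dependent kinase, held 95.2, 97.6 and 93.6 CPM in KO libraries and 159.6, 159.6 and 152 CPM in WT libraries (-0.72 ± 0.06, adjusted p = 0.00144). All 3 kept their call under every one of 14 alternatives. Rpl5, a ribosomal protein that can bind Mdm2, had a log2 change of -0.54 ± 0.12 (adjusted p = 0.0133), with 441 to 469 CPM in KO and 594 to 777 CPM in WT libraries, and its call was lost with the neutrophil covariate (-0.27, adjusted p = 0.150). The other 4 that fell were Rpl11, Chek1, Trp53bp1 and Usp7, with log2 changes from -0.52 to -0.33, and all 4 calls were lost with that covariate. Leaving out KO_340 left 5 genes lower, and the single higher call, Ppp1r13b, was lost without any single library but WT_341 and in 3 other settings. These counts describe transcripts, and the amount and activity of the p53 protein and of the kinases were not measured.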

How the data were processed

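Each mouse gave its own RNA, extracted with TRIzol, and per the labels' protocols this was sequenced as strand-specific TruSeq messenger RNA libraries with paired reads of 75 bp. The deposited table holds raw counts of reads by gene symbol, which the authors deposited without normalization. The submitters' processing notes name FastQC, Trimmomatic, STAR and HTSeq, and the build mm10. The sources used here state no annotation, strand setting or treatment of multiply mapped reads. No pair of libraries was alike within sampling noise (chi-square per degree of freedom from 58.69 to 1132).

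The test used R 4.3.3 and edgeR 4.0.16, with filterByExpr (minimum count 10, minimum total 15), TMM factors, glmQLFit with robust estimation, glmQLFTest, and Benjamini-Hochberg adjustment over 15742 genes. The pipeline was tested on simulated data. Members had 31 to 46465 counts in a library.

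The members, lists, named-gene rule and alternatives were chosen with earlier results of these data known. The rule set full values for Trp53, Mdm2, Mdm4, Ppm1d and up to 5 members per role group with the smallest adjusted p. It also took Cdkn1a, Bax, Bbc3 and the 4 leading genes of each pathway list. Of these, Bax and Rpl5 are given by ranges, and Slc19a2 and Tob1 by log2 change and adjusted p only. Library values of Ckap2, Btg2, Plk3 and Gdf15 are given beyond the rule. Alternatives were upper-quartile and no scaling, DESeq2 1.42.0, limma 3.58.1 voom, 2 other filters, 2 covariates and each library left out. Sex was read from Xist and Y-linked counts and was unbalanced between the groups. Positions and exon lengths come from the GENCODE M21 annotation (GRCm38), and promoter sequences from RefSeq (GRCm38.p6). Older symbols were matched through RefSeq synonyms, and Ly6g and Trbc1 were not matched.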

Additional observations from a re-analysis of the deposited data

How the results depend on the processing

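The 20 higher members were between 19 and 25 under the 14 alternatives, and no member with a call changed direction. The median log2 change of the members (0.81) was 0.96 with upper-quartile factors, 0.92 with library totals only, 0.76 with limma-voom, 0.80 with no low-count filter, 0.89 with at least 1 CPM in 3 libraries, 0.82 with the neutrophil covariate, 0.90 with sex as a covariate, and 0.73 to 0.89 without single libraries. Upper-quartile factors and library totals also moved the median of all genes, from 0.01 to 0.15 and 0.11. The 1 lower member became 0 with upper-quartile factors, library totals, limma-voom, the 1 CPM filter and the neutrophil covariate, and 0 to 1 without single libraries. Over all genes 5659 changed, against 1285 with the neutrophil covariate (480 higher, 805 lower) and 2302 to 7879 without single libraries (1039 to 3573 higher, 1263 to 4306 lower). limma-voom gave 4030 higher, and upper-quartile factors 1931 lower. The 2 lower targets outside the members were 1 with upper-quartile factors, 0 with the neutrophil covariate and 1 to 3 without single libraries. The upstream genes were 4 higher under either upper-quartile factors or library totals, 3 with limma-voom and with the 1 CPM filter, 0 with no filter and with either covariate, and 0 to 3 without single libraries. They were 3 lower with the neutrophil covariate and 5 to 8 without single libraries. The causes of these shifts were not tested. No paired analysis was possible because the groups share no replicate numbers. The member with the fewest counts, Gdf15, had 31 in its lowest library.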
